A study of Saccharomyces cerevisiae with 4 samples.

Results

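The hexose kinases are the enzymes of budding yeast (Saccharomyces cerevisiae) that put a phosphate on hexose sugars once these have entered the cell. Their genes are HXK1 and HXK2, for hexokinases that act on glucose, fructose and mannose, GLK1, for a glucokinase that acts on glucose and mannose but not on fructose, and EMI2, a paralog of GLK1 named for early meiotic induction. These 4 genes were chosen by name among the 7130 rows of the deposited table. The difference of HXK1 between the groups was known when they were chosen, so their values in this comparison are given as a description, and no test of them is used as support. All 4 genes were found and all 4 passed the filter on low values.

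Hexose kinases make the glucose 6-phosphate that feeds glycolysis, the pentose phosphate pathway and storage carbohydrates. HXK2 is known as the main hexokinase of cells growing on glucose, and its protein also takes part in glucose repression together with the repressor Mig1. HXK1 and GLK1 are known to be repressed by glucose and to be expressed more strongly on other carbon sources or under stress.

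The libraries hold total RNA, depleted of ribosomal RNA, from log-phase cells at an optical density of about 0.8 in enriched medium. Wild type cells (WT) gave 2 libraries, and 2 came from the Asr1-RING genotype, which carries a mutation in the RING of Asr1, a RING-finger ubiquitin ligase. The strain, the carbon source, the bases changed in ASR1 and whether replicates were grown as separate cultures are not stated in the labels, so the spread between libraries may be technical. The comparison asks how the mutation bears on transcript levels in growing cells. ASR1 itself (YPR093C) had 7.05 and 6.34 FPKM in WT, against 4.99 and 5.39 FPKM in Asr1-RING (limma adjusted p = 0.157), and a value per gene cannot show a change within its sequence. FPKM counts fragments per kilobase of transcript in every 1000000 mapped fragments. The lowest values stepped in whole fragments, and this put the depth of a library, in units of 1000000 fragments, at 41.4 to 47.8. All 4 libraries had high levels of the alpha-cell genes (the 4 markers ranged from 337 to 4302 FPKM) and low levels of the 6 a-cell genes (2.4 to 67.2 FPKM), and no marker passed the limma test. At an unadjusted p under 0.05, 0 alpha-cell and 2 a-cell markers differed.

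The coding sequences are alike in pairs, which bears on whether reads could be split between the genes. In the RefSeq assembly R64, a later build than the sacCer2 of the deposited table, HXK1 and HXK2 were identical at 77.5% of 1461 aligned positions. GLK1 and EMI2 were identical at 68.4% of 1506 positions, while identities across the pairs were 47.9% to 48.9%. The longest run that HXK1 and HXK2 share is 23 bases and starts at coding base 247 in both. It is shown here because it limits the reads that could have come from either gene.

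shared run of HXK1 and HXK2: ttggccattgatttgggtggtac

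No word of 25 bases in any of the 4 coding sequences was found anywhere else in the assembly, on either strand. No source used here gives the read length. The coding lengths in R64, 1458 bp for HXK1, 1461 bp for HXK2 and 1503 bp each for GLK1 and EMI2, equal the lengths of the rows in the deposited table.

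The upstream regions differ between the genes in motifs of carbon and stress control. A stress response element (STRE, AGGGG) is the site of the stress activators Msn2 and Msn4, and the core of the site of Mig1 was searched as GCGGGG in its first form, CCGGGG in its second form, GTGGGG in another form and CTGGGG in its last form. Both strands of the 500 bases before each start codon were searched in R64. HXK1 and GLK1 each held 3 STRE matches and EMI2 held 2, while HXK2 held 0. Of 6000 genes searched alike, 34.1% held at least 1 STRE match and 8.1% held 2 or more. HXK1 held 2 Mig1 core matches, GLK1 and EMI2 held 1 each and HXK2 held 0, against 22.7% of the 6000 genes with at least 1. None of the STRE matches in these genes overlapped a Mig1 core match. The windows of 30 bases are on the strand of the gene, with the matches in capitals, and are shown because they set HXK1, GLK1 and EMI2 apart from HXK2 in sequence.

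HXK1, STRE, chrVI:255520-255549, minus strand: gCCCCTgaaccccactattctgCCCCTttg

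HXK1, STRE, chrVI:255369-255398, minus strand: catttttttttaAGGGGttgatgaaaagaa

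HXK1, Mig1 core, chrVI:255336-255365, minus strand: gtttctttctccCCCCGGattttggtacct

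GLK1, STRE, chrIII:50652-50681, plus strand: tcaaCCCCTttcAGGGGgcCCCCTatcttg

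GLK1, Mig1 core, chrIII:50608-50637, plus strand: gcggcgcttgcaCCCCGCattataagtggt

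EMI2, STRE, chrIV:1476814-1476843, minus strand: ggtgggcccttcAGGGGtagttgcctgcgt

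EMI2, STRE, chrIV:1476632-1476661, minus strand: tgcttgcgatgcAGGGGggggaaacatgta

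EMI2, Mig1 core, chrIV:1476766-1476795, minus strand: gtgacaaaaaacGCGGGGcatccagaaagt

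The 3 STRE matches of GLK1 lie within 1 such window, between 178 and 163 bases before the start codon. Those of HXK1 lie farther away, at 495, 474 and 333 bases, and those of EMI2 at 351 and 169 bases. The other Mig1 core match of HXK1, CCCCAC, lies 486 bases before the start codon, between the first pair of STRE matches. A match is a string of letters and not a site shown to be bound, and the lack of a match in HXK2 says only that these letters are not in this window.

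**Figure D1:**
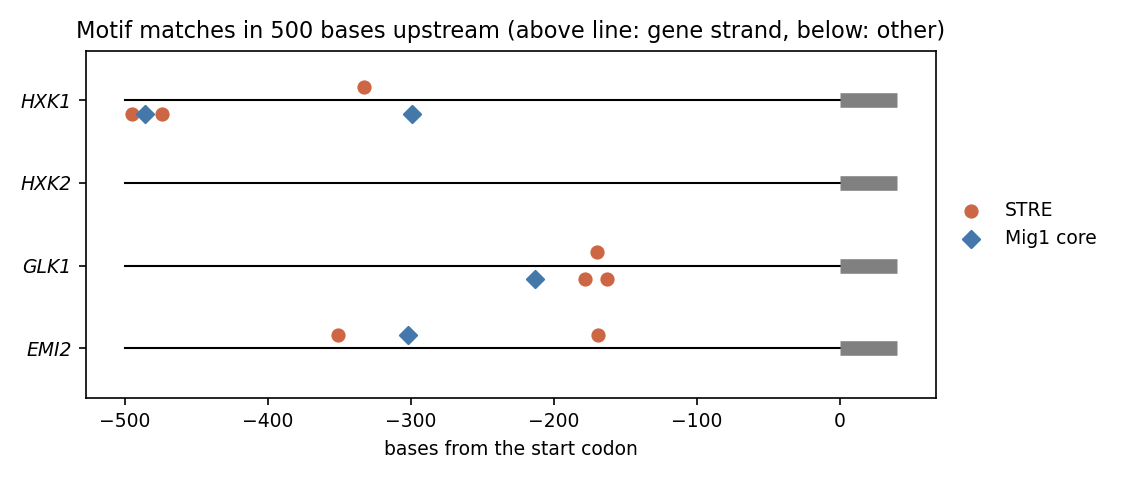
Positions of STRE matches (circles) and Mig1 core matches (diamonds) in the 500 bases before the start codon of each gene, by distance in bases, above the line on the strand of the gene and below it on the other strand. HXK1 has 3 and 2 matches, GLK1 3 and 1, EMI2 2 and 1, and the line of HXK2 is empty.

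HXK2 carried most of the hexose kinase signal in every library. These are levels in bulk RNA, where fewer cells expressing a gene and less RNA per cell cannot be told apart. HXK2 (YGL253W, chromosome VII, 23935 to 25395) had 1199 and 1326 FPKM in WT, against 1744 and 1821 FPKM in the mutant libraries. Both mutant libraries lay above both WT libraries, with a mean of 1782 ± 54.6 FPKM against 1263 ± 89.8 FPKM (SD, n = 2). The mean was 1.41-fold higher, and the log2 difference, Asr1-RING minus WT on the scale of log2(FPKM + 1), was 0.50 (SE 0.0992). The gene ranked 236th and 226th among 6717 rows of open reading frames (ORFs) in WT, against 192nd and 184th in Asr1-RING. After quantile normalization, which forces all libraries onto the same distribution, its log2 difference was 1.00. Other abundant rows shifted upward in this setting too, such as PGI1 from 0.15 to 0.61 and PFK2 from -0.08 to 0.49.

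HXK1 was the lowest of the 4 genes in WT, and in the FPKM as deposited it had the largest ratio between the groups. HXK1 (YFR053C, chromosome VI, 253579 to 255036) had 30.4 and 33.7 FPKM in WT, against 54.6 and 77.8 FPKM in Asr1-RING. Both mutant libraries lay above both WT libraries, and the mutant libraries differed from each other by 1.42-fold. The mean was 32.0 ± 2.33 FPKM in WT, against 66.2 ± 16.4 FPKM in Asr1-RING (SD, n = 2), 2.07-fold higher, and the log2 difference was 1.00 (SE 0.178). The difference was 0.75 when Asr1-RING replicate 2 was left out and 1.26 when replicate 1 was. After quantile normalization it was 0.91, below the 1.00 of HXK2. Its rank among the ORF rows went from 2584th and 2359th in WT to 1786th and 1429th in Asr1-RING. At the estimated depths its values stand for 1820 and 1746 fragments in WT, against 2984 and 4432 fragments in Asr1-RING.

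EMI2 (YDR516C, chromosome IV, 1474967 to 1476469) was close to HXK1 in level. It had 35.1 and 36.7 FPKM in WT, against 54.9 and 61.6 FPKM in Asr1-RING. The groups did not overlap, and the libraries of each group lay close to each other. The mean was 35.9 ± 1.10 FPKM in WT, against 58.3 ± 4.73 FPKM in Asr1-RING (SD, n = 2), 1.62-fold higher, with a log2 difference of 0.68 (SE 0.101).

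GLK1 (YCL040W, chromosome III, 50838 to 52340), the second most abundant of the 4, did not share this direction. It had 236 and 238 FPKM in WT, against 243 and 214 FPKM in Asr1-RING. The WT libraries lay between the mutant libraries, so the groups overlapped. The mean was 237 ± 1.37 FPKM in WT, against 229 ± 20.3 FPKM in Asr1-RING (SD, n = 2), with a log2 difference of -0.05 (SE 0.101). The sign of this difference rested on 1 library, since it was 0.04 when Asr1-RING replicate 2 was left out and -0.14 when replicate 1 was. It was 0.05 after quantile normalization.

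**Figure D2:**
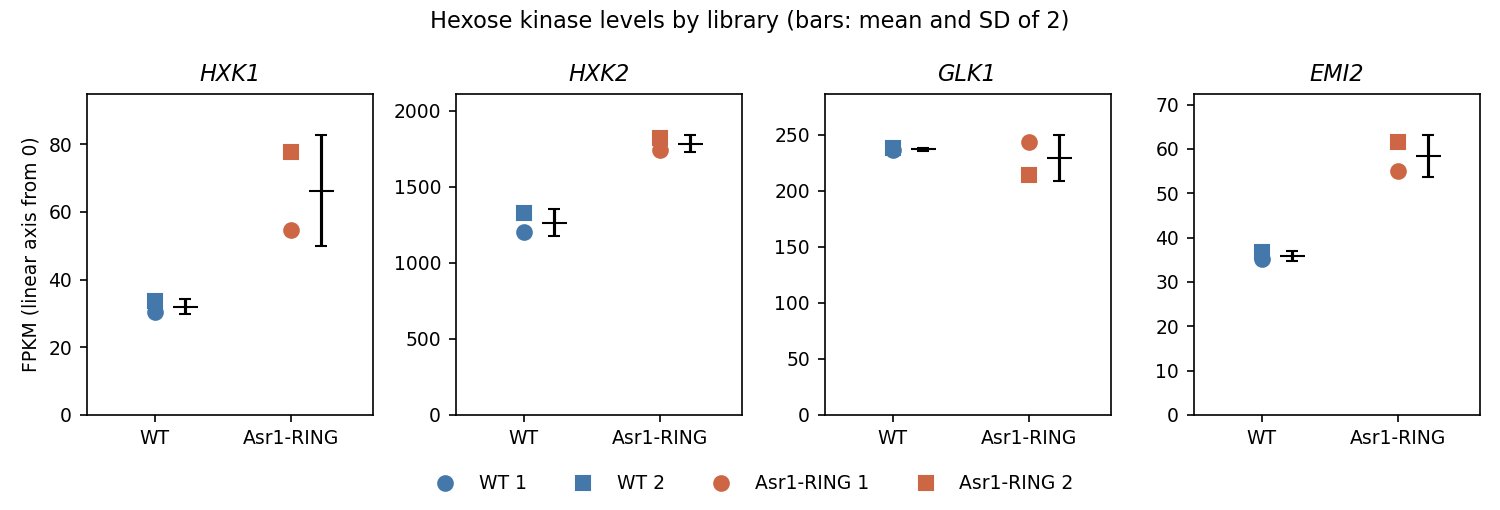
FPKM of each gene by library on linear axes from 0, with WT in blue and Asr1-RING in orange, replicate 1 as circles and replicate 2 as squares, and the mean and SD of 2 libraries beside them. HXK1, HXK2 and EMI2 have both Asr1-RING libraries above both WT libraries, and GLK1 has WT between the Asr1-RING values of 243 and 214 FPKM.

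In order of level, HXK2 was far above GLK1, and GLK1 far above EMI2 and HXK1, in all 4 libraries. HXK1 and EMI2 were neighbours in this order. EMI2 was above HXK1 in both WT libraries and in Asr1-RING replicate 1 (54.9 against 54.6 FPKM), and HXK1 was above EMI2 in Asr1-RING replicate 2 (77.8 against 61.6 FPKM). The ratio of EMI2 to HXK1 was 1.12 ± 0.0473 in WT, against 0.90 ± 0.151 in Asr1-RING (SD, n = 2), so in Asr1-RING these genes did not differ beyond their spread.

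In the fit of all rows, 3 of the 4 genes, HXK1, HXK2 and EMI2, were called higher in Asr1-RING at a limma adjusted p under 0.05, and GLK1 was not. Of the 6892 rows tested, 1.89% were called higher, and of the 6517 ORF rows among them 1.95%. As the genes were chosen with this comparison known, nothing is read from the count. Each of these calls was lost without WT replicate 1 and also without WT replicate 2. The log2 differences were then 0.93 and 1.08 for HXK1, 0.43 and 0.57 for HXK2, and 0.65 and 0.71 for EMI2. Both mutant libraries lay above both WT libraries in 33% of the rows tested.

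**Figure D3:**
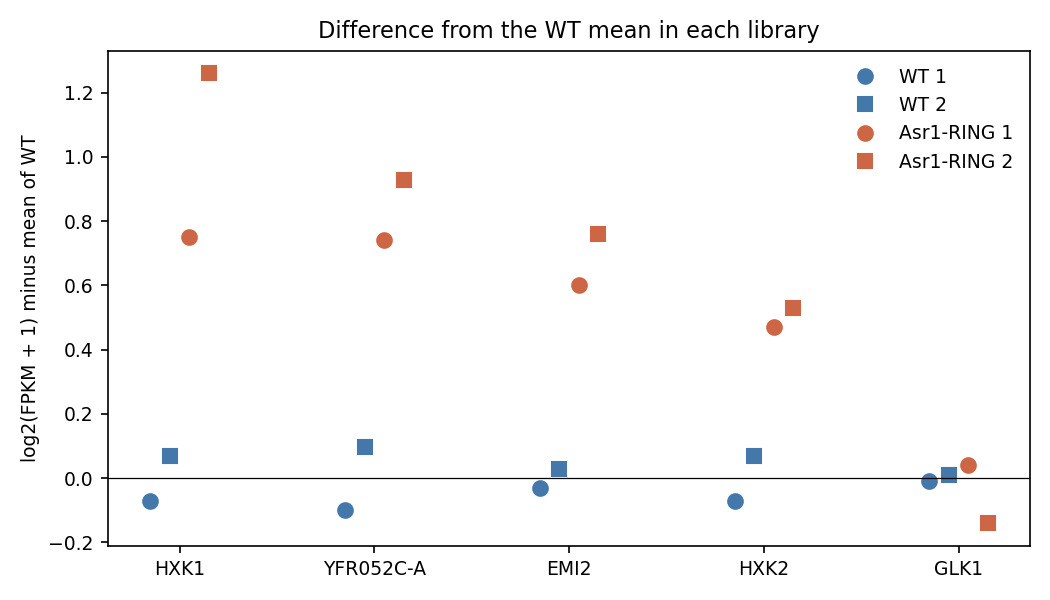
Difference of log2(FPKM + 1) from the mean of the WT libraries for the 4 genes and for YFR052C-A, the row that overlaps HXK1, with 1 point per library. In Asr1-RING replicates 1 and 2, HXK1 lies at 0.75 and 1.26, EMI2 at 0.60 and 0.76, HXK2 at 0.47 and 0.53, and GLK1 at 0.04 and -0.14.

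The make-up of the family within each library does not depend on scaling that multiplies a whole library. HXK2 made up 79.9% and 81.1% of the summed FPKM of the 4 genes in WT, against 83.2% and 83.7% in Asr1-RING. GLK1 made up 15.7% and 14.5% in WT, against 11.6% and 9.85% in Asr1-RING. The share of GLK1 was thus lower in both mutant libraries, while its own level overlapped between the groups. HXK1 made up 2.02% and 2.06% in WT, against 2.60% and 3.58% in Asr1-RING, and EMI2 2.34% and 2.25% against 2.62% and 2.83%. The summed FPKM of the family was 1501 and 1634 in WT, against 2096 and 2174 in Asr1-RING. The group means of this sum were 1.36-fold apart, and HXK2 supplied most of it. The share of HXK1 differed by 1.05 percentage points between the groups, by 0.562 when Asr1-RING replicate 2 was left out and by 1.53 when replicate 1 was. With 2 libraries against 2, an exact two-sided permutation test cannot give a p below 0.333, so no such test was made.

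Within each pair of paralogs the less abundant gene was closer in level to the other in Asr1-RING than in WT in the FPKM as deposited. HXK2 was 39.5-fold and 39.4-fold above HXK1 in the WT libraries and 32.0-fold and 23.4-fold above it in the Asr1-RING libraries. GLK1 was 6.71-fold and 6.48-fold above EMI2 in WT, against 4.42-fold and 3.48-fold above it in Asr1-RING. After quantile normalization the log2 differences of 1.00 for HXK2 and 0.91 for HXK1 left that pair no closer. Those of 0.05 for GLK1 and 0.59 for EMI2 still brought the other pair closer. That setting moved abundant rows other than HXK2 upward as well, as given above for PGI1 and PFK2. Neither ratio of deposited FPKM overlapped between the groups, and in both the mutant libraries were farther apart than the WT libraries. The ratio of HXK2 to GLK1 went the other way in size, from 5.09 and 5.58 in WT to 7.18 and 8.5 in Asr1-RING.

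**Figure D4:**
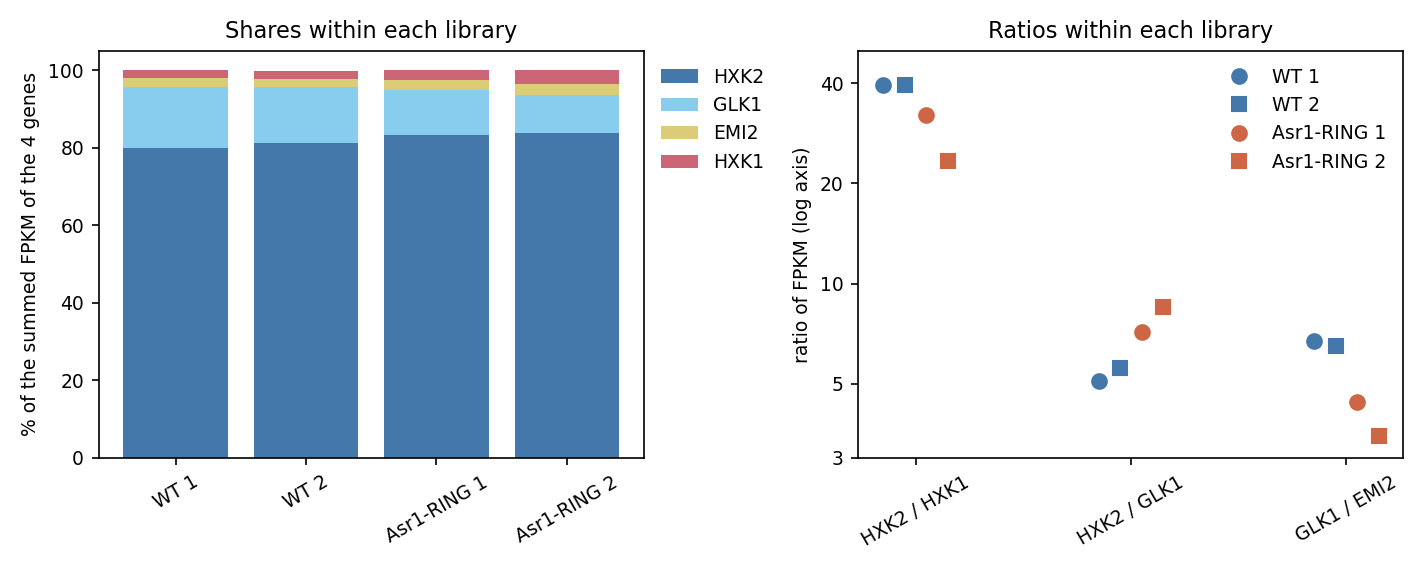
Left, shares of the summed FPKM of the 4 genes in each library, in percent. Right, ratios of FPKM between genes in each library on a log axis, where HXK2 over HXK1 lies at 39.5 and 39.4 in WT against 32.0 and 23.4 in Asr1-RING, GLK1 over EMI2 at 6.71 and 6.48 against 4.42 and 3.48, and HXK2 over GLK1 is higher in Asr1-RING.

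Rows next to the members show how far the differences reached along the chromosome. YFR052C-A, an ORF on the same strand as HXK1 by its systematic name, overlaps the last 143 bp of HXK1, 9.81% of that row and 46.7% of its own. It had 52.5 and 60.3 FPKM in WT, against 94.8 and 108 FPKM in Asr1-RING. This row rose 1.80-fold (log2 difference 0.84, SE 0.118, limma adjusted p = 0.014), and lost its call when WT replicate 1 was left out (adjusted p = 0.118) and also when WT replicate 2 was (adjusted p = 0.0589). Reads from the shared bases cannot be assigned to HXK1 or YFR052C-A, so both values are uncertain to that extent. RPN12, a proteasome subunit gene 262 bp away on the other side of YFR052C-A, had 74.7 ± 1.29 FPKM in WT, against 78.4 ± 4.18 FPKM in Asr1-RING (SD, n = 2) and did not pass the limma test (adjusted p = 0.681).

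The row YCL042W, which overlaps GLK1 by 106 bp, had 120 ± 2.23 FPKM in WT, against 122 ± 1.46 FPKM in Asr1-RING (limma adjusted p = 0.897). The rows beside HXK2 are FZF1, a gene of sulfite resistance, and RTG2, a gene of signalling from mitochondria to the nucleus. FZF1 had 17.2 ± 1.79 and 15.7 ± 3.90 FPKM in WT and Asr1-RING, and RTG2 had 22.6 ± 0.816 and 27.1 ± 0.780 FPKM (limma adjusted p = 0.658 and 0.158). YFR054C beyond HXK1 and YCL041C and GID7 beside GLK1 did not pass (limma adjusted p = 0.18, 0.423 and 0.859). SLF1 and GRH1 flank EMI2 and did not pass the test either (limma adjusted p = 0.968 and 0.567). Of the 10 rows that overlap or flank the 4 genes, YFR052C-A alone was called. As 46.7% of YFR052C-A lies within HXK1, its call is not separate from the HXK1 difference known when the genes were chosen.

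Hexose transporters, which bring in the sugar that the kinases phosphorylate, and the sensors Snf3 and Rgt2 were the step before. Of 17 tested genes 1 rose, 0 fell and 16 did not pass, with a median log2 difference of 0.26 against 0.03 over all ORF rows. At an unadjusted p under 0.05, 2 were higher and 0 lower. Over the 6517 ORF rows tested, 1002 were higher and 498 lower at this threshold. The unadjusted counts of the lists below stand beside this background. HXT2, a high-affinity glucose transporter, had 252 and 220 FPKM in WT, against 392 and 619 FPKM in Asr1-RING and rose 2.14-fold (log2 difference 1.06, SE 0.220, limma adjusted p = 0.0496). Its ratio between the groups was thus close to that of HXK1, and the same mutant library was the higher for both. The call of HXT2 ended under 8 of 14 alternatives. HXT3, the most abundant transporter, had 783 ± 36.4 FPKM in WT, against 944 ± 187 FPKM in Asr1-RING (SD, n = 2) and did not pass (limma adjusted p = 0.333). HXT6 and HXT7 are near-identical copies whose separate levels are uncertain, as are those of HXT13, HXT15, HXT16 and HXT17.

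Regulators of glucose repression, the pathway in which Hxk2 takes part, gave no call in the fit of all rows. Of 24 tested genes 0 passed limma's adjusted threshold, and 4 were higher and 2 lower at an unadjusted p under 0.05. With a mean of at least 10 FPKM or with robust moderation, 1 was called higher. Without Asr1-RING replicate 1, 4 were called higher and 2 lower, and without replicate 2, 3 were called higher. The median log2 difference was 0.01. MTH1, a co-repressor of hexose transporter genes, had 6.69 and 6.84 FPKM in WT, against 10.8 and 19.2 FPKM in Asr1-RING (log2 difference 0.99, limma adjusted p = 0.0749). MIG1, the repressor that works with Hxk2, had 12.5 and 10.6 FPKM in WT, against 14.9 and 18.5 FPKM in Asr1-RING (adjusted p = 0.102), and MIG2, a related repressor, 24.9 and 22.3 against 34.2 and 49.7 FPKM (adjusted p = 0.0644). SAK1, REG1 and REG2 of the same list went the other way. Their log2 differences were -0.42, -0.43 and -0.37 (limma adjusted p = 0.0964, 0.189 and 0.111). MIG1, MIG2, SAK1, REG1 and REG2 lie outside the naming rule, and MTH1 meets it only by its likeness to HXK1. All were picked after their values were seen. TUP1 and GLC7, the most abundant genes of the list, did not pass (limma adjusted p = 0.258 and 0.305).

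Genes that cells repress on glucose, as they do HXK1 and GLK1, gave a call in each direction. Of 19 tested genes 1 rose, 1 fell and 17 did not pass, with a median log2 difference of -0.12. At an unadjusted p under 0.05, 2 were higher and 5 lower. ALD4, the mitochondrial aldehyde dehydrogenase, rose from 44.5 ± 0.539 to 62.3 ± 0.263 FPKM (limma adjusted p = 0.0355). IDP2, the cytosolic isocitrate dehydrogenase, fell from 7.52 ± 0.203 to 4.68 ± 0.308 FPKM (adjusted p = 0.0379). SUC2, the invertase gene and a standard read-out of glucose repression, had 92.8 ± 3.6 FPKM in WT, against 95.4 ± 0.182 FPKM in Asr1-RING (adjusted p = 0.807), and ADH2, an alcohol dehydrogenase, 1328 ± 22.9 and 1227 ± 87.0 FPKM (adjusted p = 0.488), although ADH2 is close in sequence to its paralog ADH1 and its separate level is uncertain.

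Genes of the Ras, protein kinase A and Msn2/4 control of growth and stress gave 1 call. Of 19 tested genes 1 rose, 0 fell and 18 did not pass, with a median log2 difference of 0.19. At an unadjusted p under 0.05, 2 were higher and 1 lower. TPK2, a catalytic subunit of protein kinase A, rose from 16.2 ± 1.33 to 24.7 ± 2.75 FPKM (limma adjusted p = 0.0496), a call that ended under 9 of 14 alternatives. MSN4 had 12.9, 13.1 and 13.5 FPKM in both WT libraries and Asr1-RING replicate 1, and 26 FPKM in Asr1-RING replicate 2 (adjusted p = 0.309). MSN2 was likewise high in Asr1-RING replicate 2 alone, at 27.1 FPKM against 16.7 to 17.4 FPKM in the other libraries (adjusted p = 0.451). Both were picked after their values were seen. HXK1, HXK2, EMI2 and HXT2 were also highest in that library, and GLK1 was lowest in it. A gene with both mutant libraries above WT must be highest in a mutant library. The share of all rows that were highest in Asr1-RING replicate 2 was not counted, so nothing is read from this. A link between these genes was not tested. Without that library the log2 difference of HXT2 was 0.73, beside the 0.75 of HXK1 given above.

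Of 12 tested genes that use glucose 6-phosphate or act beside it, 1 rose, 0 fell and 11 did not pass, with a median log2 difference of 0.18. At an unadjusted p under 0.05, 4 were higher and 0 lower. PGM1, a phosphoglucomutase that links glucose 6-phosphate to glucose 1-phosphate, rose 1.41-fold, from 84.0 ± 2.93 to 119 ± 8.33 FPKM (limma adjusted p = 0.0435). PGI1, which turns glucose 6-phosphate into fructose 6-phosphate in glycolysis, had 1606 ± 50.9 and 1783 ± 29.4 FPKM (adjusted p = 0.34), and PFK2, a subunit of phosphofructokinase, 1144 ± 0.297 and 1083 ± 34.6 FPKM (adjusted p = 0.618). Among 9 other kinases of sugars and trioses, 8 did not pass and DAK1, for a dihydroxyacetone kinase, rose 1.47-fold, from 72.9 ± 4.30 FPKM in WT to 107 ± 9.76 FPKM (adjusted p = 0.0419). At an unadjusted p under 0.05, 3 of the 9 were higher and 1 lower. CDC19, the main pyruvate kinase, had 2605 ± 208 and 3593 ± 16 FPKM (adjusted p = 0.0545) and PGK1, phosphoglycerate kinase, 7067 ± 184 and 6300 ± 599 FPKM (adjusted p = 0.365). CDC19 and PGK1 each overlap another row.

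Other carbohydrate enzymes with a pair of isozymes were set beside HXK1 and HXK2, in a list of minor isozymes and a list of growth isozymes. The phosphoglucomutases stand in these lists against their known roles, as PGM2 is known as the main isozyme and PGM1 as the minor one. Of 8 genes in the list of minor isozymes 0 passed limma's adjusted threshold, and 4 were higher and 0 lower at an unadjusted p under 0.05, with a median log2 difference of 0.19. ENO1, an enolase, had 4435 ± 328 and 3714 ± 252 FPKM, and TDH1, a glyceraldehyde phosphate dehydrogenase, 1938 ± 133 and 1707 ± 155 FPKM in WT and Asr1-RING (limma adjusted p = 0.204 and 0.344). They are close copies of ENO2 and TDH3, so their separate levels are uncertain. Of 6 tested genes in the list of growth isozymes PGM1 rose and 5 did not pass, with a median log2 difference of 0.31, and 3 were higher and 0 lower at an unadjusted p under 0.05. TKL1, a transketolase, had 1186 ± 50.8 and 1090 ± 47.2 FPKM (limma adjusted p = 0.452). TDH3 and ENO2 were listed at 0 in all 4 libraries although growing cells depend on such enzymes, so an exact 0 in this table can be a failed estimate, and no 0 is read as absence. Markers of cells leaving growth on glucose gave 1 call of 8, HSP26, a small heat-shock protein, which rose from 12.7 ± 1.13 to 25.1 ± 2.69 FPKM (limma adjusted p = 0.00981), a call that was lost when WT replicate 1 (adjusted p = 0.0836) or 2 (adjusted p = 0.0521) was left out. The 8 markers had a median log2 difference of 0.25, and at an unadjusted p under 0.05, 3 were higher and 0 lower. The others did not pass, DDR2 and SPI1 being the most abundant of them (adjusted p = 0.282 and 0.0741). The summed level of these 8 markers was 304 and 310 FPKM in WT, against 390 and 362 FPKM in Asr1-RING. Their part in the differences of the hexose kinases was not tested.

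Over the 117 tested genes of all these lists, 6 rose, 1 fell and 110 did not pass, where 1.95% of the ORF rows were called higher and 0.921% lower. The limma adjusted p of 6 of these 7 calls was 0.0355 to 0.0496, and that of HSP26 was 0.00981. The calls of PGM1 and DAK1 ended under 8 of 14 alternatives each, that of ALD4 under 5 of 14 and that of IDP2 under 3 of 13. Without WT replicate 1 and without WT replicate 2, 0 were called by limma in either direction (14 and 13 were higher, 1 and 5 lower, at an unadjusted p under 0.05). Without Asr1-RING replicate 1, 27 were called higher and 4 lower, and without replicate 2, 7 were called higher while the calls of TPK2, PGM1 and DAK1 ended (adjusted p = 0.0687, 0.0569 and 0.0506).

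**Figure D5:**
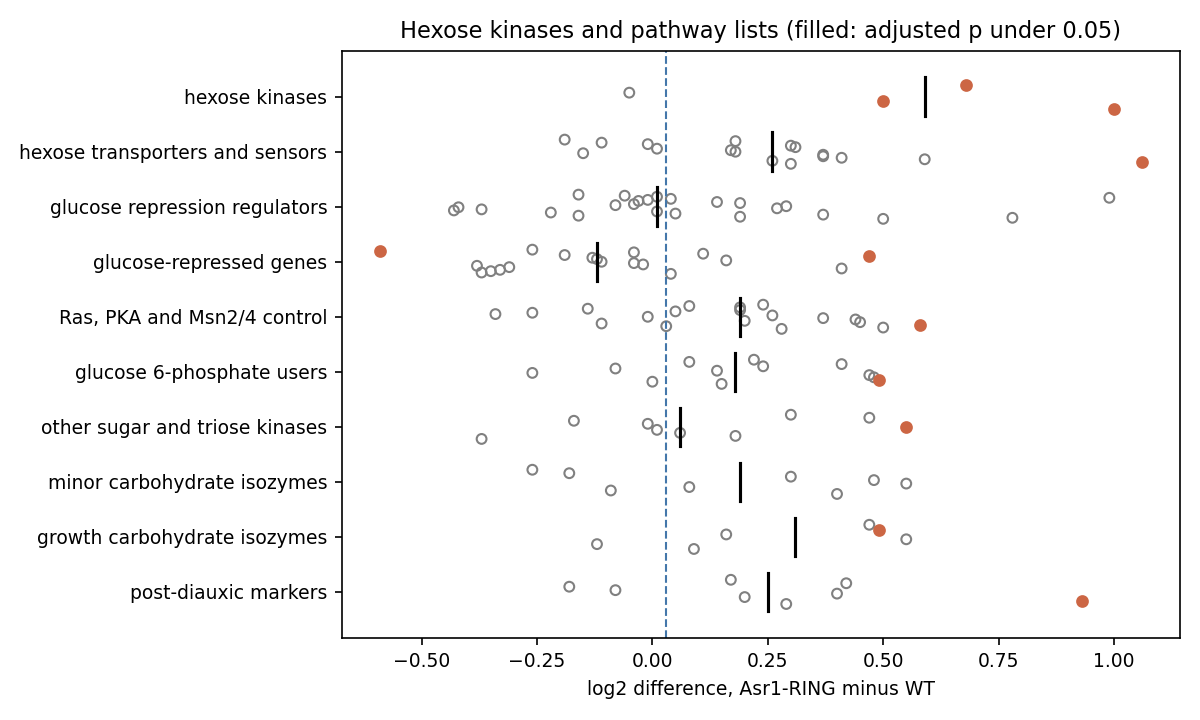
Log2 differences, Asr1-RING minus WT, for the 4 hexose kinase genes and for each gene list, with filled points at a limma adjusted p under 0.05, black bars at list medians and a dashed line at the ORF median of 0.03. HXT2 at 1.06 and HSP26 at 0.93 are the called points nearest to HXK1 at 1.00. Most list genes lie below the hexose kinase median of 0.59, but the hexose kinases were chosen with the difference of HXK1 known.

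The genes most like each hexose kinase over the 4 libraries were sought among named ORFs with a mean of at least 10 FPKM and no overlap. The measure was the root-mean-square difference of log2(FPKM + 1) after centring on the WT mean, a description over 4 libraries with no test. Nearest to HXK1 were RTS3 (0.0822), MTH1 (0.104), PRM5 (0.109), HSP26 (0.116) and SUR1 (0.126). RTS3 had 8.73 and 8.87 FPKM in WT, against 14.3 and 21.1 FPKM in Asr1-RING. RTS3 and MTH1, with WT means of 8.8 and 6.77 FPKM, reached the mean of 10 FPKM only through the Asr1-RING libraries. Nearest to HXK2 were URH1 (0.0143), MLF3 (0.0236) and ADH3 (0.0237), and ADH3, the mitochondrial alcohol dehydrogenase, had 271 and 291 FPKM in WT, against 379 and 406 FPKM in Asr1-RING. Nearest to EMI2 were OCA5 (0.0115), PUN1 (0.0296) and VMA2 (0.036), a subunit gene of the vacuolar ATPase with 417 and 447 FPKM in WT, against 627 and 724 FPKM in Asr1-RING. Nearest to GLK1 were RPL27A (0.0164), a ribosomal protein gene, SAR1 (0.0165) and ATG19 (0.0181).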

How the data were processed

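Gene-level FPKM values of 2 WT and 2 Asr1-RING libraries were analysed. The authors deposited FPKM per library, and the submitters' processing notes name TopHat2, Cufflinks and the genome build sacCer2. No version, annotation or strand setting is given in the sources used here. Columns were tied to samples by the description labels, with 0 value columns unused. Positions from the table are in sacCer2, counted from 1, and sequences are from RefSeq R64 by locus tag.

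The test took log2(FPKM + 1) of the 6892 rows, out of 7130, whose mean reached 1 FPKM. It was run in limma 3.58.1 under R 4.3.3 with a trend on intensity, the degrees of freedom being 2 residual and 3.71 prior, and p-values were adjusted over all rows by the Benjamini-Hochberg method. This scale understates changes of low rows. Folds are ratios of mean FPKM. Depth was estimated on low rows of ORFs (350 to 3000 bp, with 0.5 to 8.5 fragments each), with lengths shortened by 204 bp. At these depths 85.9% to 90.2% of 51 to 64 rows were whole fragments within 0.1. The depths were chosen to make this share as large as possible, so it is not a check on them. The floor of 3 fragments on a row of 1 kb is 0.079 to 0.091 FPKM and covers counting error only. The fit was tested on simulated data.

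The members and lists were chosen with earlier results of these data known. The text names the members, their overlapping and flanking rows, each called list gene, the 2 list genes with the highest mean and the rows most like each member. Genes named outside this rule are marked. As alternatives, the pseudocount was 0.1 or 5, the filter was dropped or raised to 10 FPKM, libraries were median centred or quantile normalized, moderation was robust or had no trend, and the fit had a replicate block, lacked each library in turn or took ORF rows alone. Python 3.11.15, pandas 2.3.3, numpy 2.4.6, Biopython 1.88 and matplotlib 3.10.9 were used.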

Additional observations from a re-analysis of the deposited data

How the results depend on the processing

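The 130 rows called higher became 63 with no filter, 216 with a mean of at least 10 FPKM, 70 with median centring, 307 with quantile normalization, 256 with robust moderation, 237 with the replicate block and 36 among ORF rows alone, which also gave 23 rows lower instead of 341. With single libraries left out, 18 to 855 rows were higher and 225 to 617 lower. The split of higher and lower calls was 130 and 341, against 70 and 447 with median centring and 307 and 316 with quantile normalization. The 6 list genes called higher became 2 with no filter or without a trend, 1 with median centring or ORF rows alone, and 0 to 27 with a library left out. The 1 called lower became 0 with a mean of at least 10 FPKM or ORF rows alone, and 0 to 4 with a library left out. The 3 hexose kinases called became 2, HXK1 and EMI2, with median centring or without a trend. They became 1, EMI2, with no filter or ORF rows alone, where the calls of HXK1 and HXK2 were lost. Calls among them were also lost with single libraries left out.

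Quantile normalization gave log2 differences of 1.00 for HXK2, 0.91 for HXK1, 0.05 for GLK1 and 0.59 for EMI2, and a difference of 0.146 percentage points in the share of HXK1. Summed FPKM over all rows was 5369809 and 4870207 in WT, against 3742848 and 3777252 in Asr1-RING. Over ORF rows it was 1856605 and 1877803 in WT, against 1843982 and 1874468 in Asr1-RING. The cause of the shifts under quantile normalization was not tested. All other alternatives left the differences of HXK1, HXK2 and EMI2 above 0, at 0.75 to 1.26, 0.42 to 0.57 and 0.60 to 0.76. Replicate numbers of the groups pair nothing in the labels, and the replicate differences correlated at -0.071 over all rows and at 0.144 over ORF rows.

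Some named rows that did not pass gained a call, in 12 cases over all alternatives. Quantile normalization gave 0.70 for HXT3 (limma adjusted p = 0.0291), 0.61 for PGI1 (0.024), 0.79 for CDC19 (0.0348) and 0.73 for MF(ALPHA)1 (0.0287). CDC19 was also called with a mean of at least 10 FPKM and with robust moderation, and MFA1 with the replicate block. Without Asr1-RING replicate 1, HXT3, BCY1, MF(ALPHA)1 and MFA2 were called, and without replicate 2, GLC7.

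Rows that passed no test changed sign. Median centring, which lowered the median of all rows from 0.02 to -0.06, gave -0.04 for SUC2, -0.06 for MF(ALPHA)2, -0.01 for RPN12, -0.05 for YCL042W and -0.03 for GID7. Quantile normalization gave 0.39 for ADH2, -0.07 for SUC2, 0.49 for PFK2, 0.12 for PGK1, 0.30 for TDH1, 0.45 for TKL1, -0.06 for RPN12, -0.05 for YCL042W, 0.01 for SLF1 and -0.03 for GRH1. With a library left out, MF(ALPHA)2 reached -0.02, SLF1 0.02 and 0.07, and GID7 ranged from -0.08 to 0.16 and FZF1 from -0.38 to 0.10.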

Other observations

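Over all ORFs, the number of STRE matches in the 500 bases before the start codon can be set beside the log2 difference. The 3878 tested ORFs with 0 matches had a median log2 difference of 0.03 and 1.96% were called higher by limma. The 1536 with 1 match had a median of 0.03 and 1.82% called higher. The 477 with 2 or more had a median of 0.06 (quartiles -0.11 and 0.27) and 2.94% called higher. Among them, the 110 with 3 or more had a median of 0.10 (quartiles -0.05 and 0.29) and 4.55%, or 5 ORFs, called higher. For Mig1 core matches, 1.93% of the 4557 ORFs with 0 matches were called higher. The share was 2.05% of 1120 with 1 match, 3.27% of 214 with 2 or more, and 5.0% of 40, or 2 ORFs, with 3 or more. In the same order the median log2 differences were 0.03, 0.04, 0.05 and 0.05, with quartiles of -0.13 and 0.29 at 3 or more. Both sets of values are a description with no test, and both include the hexose kinases, chosen with the difference of HXK1 known. HXK1 is among the 5 called ORFs with 3 or more STRE matches, and HXK1 and EMI2 are among the 14 with 2 or more. HXK1 is also among the 7 called ORFs with 2 or more Mig1 core matches. Of the hexose kinases, HXK1 held 3 STRE matches and had a log2 difference of 1.00, and EMI2 held 2 and had 0.68. GLK1 held 3 STRE matches and had -0.05, and HXK2 held 0 and had 0.50.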
